A study of Mus musculus with 4 samples.

Results

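The genes that encode the proteins of the cytosolic ribosome, with their retro-copies and paralogues, were followed in mouse liver. Members were the protein-coding genes of RefSeq whose symbols name a large-subunit protein (Rpl and a number, Rplp0 to Rplp2) or a small-subunit protein (Rps and a number, Rpsa), leaving out the Rps6k kinases. This gave 91 genes, set against 17543 genes in the deposited tables. Of the 91, 77 were parent genes (46 of the large and 31 of the small subunit), 13 were retro-copies or paralogues, and 1, Rps19bp1, encodes a protein that binds Rps19 and is not part of the ribosome. Reads were listed for 89 members, and 87 had enough to be tested, among them all 77 parents, 9 copies and Rps19bp1. Rpl10l and Rpl39l, paralogues known from testis, were not listed in any liver. Rpl3l, the paralogue of heart and skeletal muscle, had 0, 0, 0 and 1 read, and Rpl32l had 1.4, 0, 0 and 0 reads, in the order wild type 1, wild type 2, Ezh2 K307R 1 and Ezh2 K307R 2, which is kept below. Another 5 copies, which RefSeq lists as transcribed pseudogenes and which are therefore no members, were read beside their parents.

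The livers came from C57BL/6 mice, 2 wild type and 2 homozygous for K307R, a point mutation of Ezh2, the methyltransferase subunit of Polycomb repressive complex PRC2. The genotype was read as Ezh2(K307R/K307R), and the comparison asks which liver transcripts differ between the genotypes. The labels give neither age nor sex nor hour of collection and do not say that replicates were separate animals, so p-values measure only the spread between these samples. Expected counts, RSEM's estimates of the reads of each transcript, summed to between 18602928 and 20044832 per liver. Ezh2 itself had 3.36, 3.93, 3.45 and 2.56 CPM, counts scaled to a common library size, which does not check a point mutation. Transcripts of the Y chromosome (Ddx3y, Eif2s3y, Kdm5d and Uty) were read in both wild-type livers and had 0 reads in both mutant livers, whereas Xist stood at 0.347 and 0.284 CPM in wild-type livers, against 327 and 573 CPM in mutant livers. The male-type and female-type patterns fall along the genotypes, so genotype and sex pattern cannot be told apart in any difference below. Alb, the defining transcript of hepatocytes, stood between 98489 and 105307 CPM.

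A cytosolic ribosome holds 1 copy of nearly every ribosomal protein, and its parts are made in step with ribosomal RNA in the nucleolus. The transcripts are short and abundant, and most begin with a run of pyrimidines, the TOP motif, through which MTOR and Larp1 govern their translation and stability. In liver, ribosome content follows feeding and growth. Ribosomal protein transcripts are also a frequent source of retro-copies, which arise when a spliced transcript is copied back into the genome and therefore often lack introns.

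Sequences around annotated start sites are given for 5 members described below, each with a run of pyrimidines at or near that site, where the TOP motif lies. Whether these runs act in these livers was not tested. Each is 30 bases of RefSeq's GRCm38.p6 on the strand of the gene, 15 before and 15 from the start site on, and the capitals mark the unbroken run of C and T that covers the start or lies within 2 bases of it. Rps6, the small-subunit protein phosphorylated by S6 kinases, lies at chr4:86857353-86857382 on the minus strand. Rps27, parent of the copy that differed most, lies at chr3:90213634-90213663 on the minus strand. Rpl38 lies at chr11:114668565-114668594, Rpl12 at chr2:32961697-32961726 and Rpl22l1 at chr3:28805493-28805522, all on the plus strand.
Rps6: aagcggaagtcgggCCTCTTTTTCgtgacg
Rps27: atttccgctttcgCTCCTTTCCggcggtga
Rpl38: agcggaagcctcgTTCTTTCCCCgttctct
Rpl12: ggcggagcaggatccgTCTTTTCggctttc
Rpl22l1: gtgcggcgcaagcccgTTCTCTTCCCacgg
A run of at least 5 pyrimidines at the annotated start, read on the strand of the gene only, stood in 24 of the 57 parents with an entry (42.1%) and in 2738 of 10240 tested genes (26.7%). An annotated start need not be the start used in these livers, so a window without a run shows only that these letters are not at that place.

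The coding sequences of the Rps27 family are given because the reads of its members turn on how far they match. Rps27 is a zinc-finger protein of the small subunit, Rps27rt is its retro-copy and Rps27l is a paralogue with introns, known as a p53 target. Rps27 and Rps27rt have the same 255 coding bases in GENCODE M21 (GRCm38), so that sequence is printed once. Capitals in Rps27l mark the 61 bases that differ from Rps27, an identity of 76.1%. They fall in 54 codons, and the longest stretch without a difference is 11 bases.
Rps27 and Rps27rt: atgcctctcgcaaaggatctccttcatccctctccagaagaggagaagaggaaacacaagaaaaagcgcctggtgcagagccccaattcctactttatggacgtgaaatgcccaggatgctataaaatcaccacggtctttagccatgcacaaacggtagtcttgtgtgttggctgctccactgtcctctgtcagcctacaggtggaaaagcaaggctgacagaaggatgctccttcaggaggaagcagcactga
Rps27l: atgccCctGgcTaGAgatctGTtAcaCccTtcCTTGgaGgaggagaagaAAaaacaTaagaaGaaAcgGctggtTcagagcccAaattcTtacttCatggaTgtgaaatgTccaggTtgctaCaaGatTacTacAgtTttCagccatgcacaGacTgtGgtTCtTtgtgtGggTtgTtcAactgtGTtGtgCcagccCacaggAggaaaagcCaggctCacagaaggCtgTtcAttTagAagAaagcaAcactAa

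Ribosomal protein transcripts were among the most abundant of the liver. On the FPKM scale, which divides reads by transcript length and library size, the mean over the 4 livers ran from 8.24 (Rps15a) to 866 (Rps2) among the parents, with a median of 280, at percentile 97.9 of all tested genes. The low value of Rps15a goes with a listed length of 5158 bases, where the median over members is 703. Rps2, a protein at the entry of the mRNA channel, stood at 810, 938, 953 and 762 FPKM. Rpl41, the shortest ribosomal protein, stood at 879, 857, 847 and 695 FPKM. Rplp1, a protein of the stalk that recruits elongation factors, stood at 784, 864, 846 and 597 FPKM. Rpl10, which joins the large subunit late in its assembly, stood at 686, 747, 822 and 537 FPKM, and Rpl28 of the large subunit at 568, 719, 602 and 471 FPKM. In all 5 the second mutant liver was the lowest, and the genotypes overlapped by FPKM except in Rpl41. At the other end stood copies: Rpl3l and Rpl32l at no more than 0.13 FPKM, and Rpl34-ps1, a retro-copy of Rpl34, at 4.19, 3.16, 3.43 and 0.67 FPKM.

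Few members differed between the genotypes by the test across all genes, edgeR's quasi-likelihood F test with Benjamini-Hochberg adjustment over 12837 genes and a threshold of 0.05. Rps27rt rose, 1 of the 87 tested members, where 1.39% of all tested genes were called higher. No member was called lower, where 1.47% of all tested genes were (2.86% in either direction), and DESeq2 gave the same counts of members while calling 378 genes higher and 386 lower over all genes. At an unadjusted p under 0.05 edgeR gave 1 member higher and 4 lower (Rpl22l1, Rpl12, Rpl36al and Rpl27), beside 8.5% and 8.31% of all tested genes. Of the 77 parents, which make the ribosome itself, 0 passed in either direction by edgeR or DESeq2 (0 higher and 2 lower at an unadjusted p under 0.05), and the smallest adjusted p among them was 0.211 (Rpl12).

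The fold changes of the parents were small and mostly below 0. Their median log2 fold change of Ezh2 K307R over wild type was -0.21, with a range from -0.72 (Rpl12) to 0.26 (Rpl22), and 71 of 77 were below 0, against a median of 0.01 and 48.9% below 0 over all tested genes. The 469 tested genes outside the family with transcripts of up to 800 bases had a median of -0.26, with 72.1% below 0. Among the parents, the large-subunit genes had a median of -0.22 and the small-subunit genes of -0.18. Both mutant livers lay below both wild-type livers for 19 members, where 23.4% of all tested genes showed that order, and above both for 1 member, Rps27rt, where 25.2% did. Among the 19 were the parents Rpl6, Rpl7a, Rpl12, Rpl15, Rpl18, Rpl27, Rpl27a, Rpl28, Rpl29, Rpl35, Rpl37, Rpl38, Rps12 and Rpsa, with Rpl7l1, Rpl22l1, Rpl36al and Rps19bp1. The share of members in that order is near the share of all genes, so the order says nothing particular about ribosomal proteins.

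The direction of the parents rested on 1 liver. Ezh2 K307R replicate 2 was the lowest of the 4 livers for 82 of the 87 tested members, where 25.2% of all tested genes were lowest there. Among the parents it was lowest for all 31 of the small subunit and 45 of the 46 of the large subunit, the exception being Rpl22. Expressed as the deviation of log2(CPM + 0.5) from the mean of the 4 livers, the members' medians were 0.15, 0.09, 0.18 and -0.42. The first mutant liver was thus at or above the level of the wild type, and the second stood apart from the other three. In CPM summed over the tested members the livers had 20118, 19189, 20454 and 13763. As bulk libraries were read, fewer cells of a type and less RNA per cell cannot be told apart in such a difference.

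**Figure D1:**
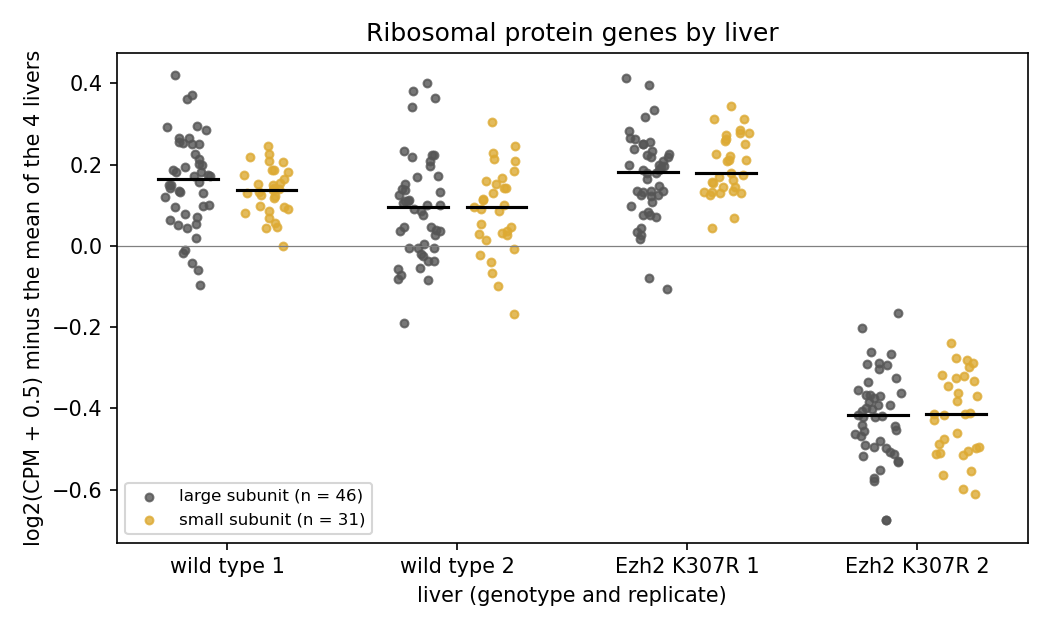
Deviation of log2(CPM + 0.5) from the mean of the 4 livers for the 77 parent genes (points; grey, 46 of the large subunit; yellow, 31 of the small subunit), by liver, with the median of each subunit as a bar. Medians over all parents are 0.15, 0.09, 0.18 and -0.42 from left to right, and the second mutant liver lies low for both subunits alike.

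Between the 2 mutant livers all 77 parents were lower in replicate 2. The median difference in log2(CPM + 0.5) over members was -0.60, with quartiles of -0.70 and -0.50, against 0.00 over all tested genes and -0.07 for the members between the 2 wild-type livers. Among the parents it was largest for Rpl21, at 255, 270, 342 and 184 CPM, a difference of -0.89 between the mutant livers. Rps27a, which is made as a fusion with ubiquitin, had 168, 150, 170 and 93.1 CPM and a difference of -0.86. Rps24 of the small subunit had 304, 269, 331 and 187 CPM and a difference of -0.82. Rps6, whose phosphorylation is a common readout of MTOR activity, had 522, 516, 567 and 338 CPM. The smallest difference among the parents was that of Rpl27, -0.26. All parents of both subunits were thus lower in that liver, by amounts that differed between genes. Outside the parents the difference ran from -1.66 (Rps23rg1) and -1.37 (Rpl34-ps1) to 0.54 (Rpl37rt) and 0.88 (Rps27rt), and it was 0.01 for Rpl7l1 and 0.09 for Rps19bp1.

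Without the second mutant liver the median log2 fold change of the members turned from -0.21 to 0.06, with 32 of 87 below 0 (51.4% of all tested genes in that fit). Without the first it was -0.54, with 85 of 87 below 0 (49.7% of all tested genes). For the parents the counts below 0 were 25 and 77 of 77. No parent was called by edgeR in either fit: the smallest adjusted p was 0.449 without replicate 2 and 0.113 without replicate 1. Without replicate 2 the highest parents were Rpl22 at 0.51, Rpl21 at 0.38, Rps27 at 0.35, and Rpl9 and Rps3 at 0.32. Rpl12 and Rpl27 stayed below 0 in both fits, at -0.45 and -0.34 without replicate 2 and at -1.05 and -0.60 without replicate 1.

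**Figure D2:**
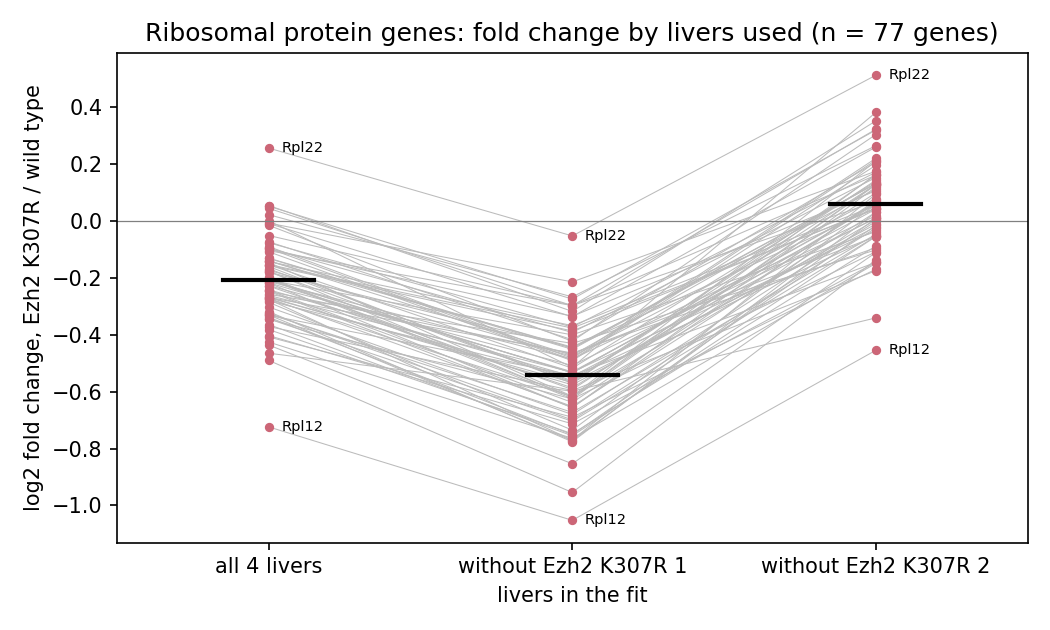
Log2 fold change of Ezh2 K307R over wild type for the 77 parent genes with all 4 livers, without mutant replicate 1 and without mutant replicate 2; lines join a gene and bars are medians (-0.21, -0.54 and 0.06). Nearly all genes move together when a mutant liver is left out, with Rpl22 at the top and Rpl12 at the bottom in all 3 fits.

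The part of all counts that fell on the members was 1.80%, 2.02%, 2.07% and 1.43%. Wild-type livers averaged 1.91% ± 0.155 (SD, n = 2) and mutant livers 1.75% ± 0.451 (SD, n = 2), a log2 ratio of -0.12. An exact two-sided permutation test over livers gave p = 1, where 2 against 2 livers allow no p below 0.333. By summed FPKM, which weighs short transcripts more, the parts were 4.10%, 4.86%, 4.86% and 3.53%. In both measures the genotypes overlapped, with the second mutant liver lowest.

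Short transcripts in general were low in the same liver, by less. Among tested genes outside the family, the median difference between the mutant livers was -0.24 for the 469 genes with transcripts of up to 800 bases, of which 57.1% were lowest in mutant replicate 2. The difference was -0.17 between 800 and 1500 bases, -0.05 between 1500 and 2500, 0.04 between 2500 and 4000, and 0.13 in the 3612 genes above 4000 bases, of which 12.8% were lowest there. The members, with a median length of 703 bases against 2809 over all tested genes, had -0.60. Another 3 families of housekeeping genes, picked after the members' values had been seen, gave smaller differences between the mutant livers, in the same direction. Mitochondrial ribosomal proteins had a median difference of -0.18 between the mutant livers with 51 of 78 lowest in replicate 2, and oxidative phosphorylation subunits -0.30 with 81 of 91. Proteasome subunits had -0.04 with 23 of 39. Between the genotypes these 3 families, in that order, had median log2 fold changes of -0.23, -0.37 and -0.26, against -0.21 for the members. Without mutant replicate 2 the medians were -0.14, -0.23 and -0.19, against 0.06 for the members. For the genes of up to 800 bases outside the family, the median was -0.26 with all livers and -0.16 without mutant replicate 2. Whether transcript length has a part in the members' values was not tested.

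**Figure D3:**
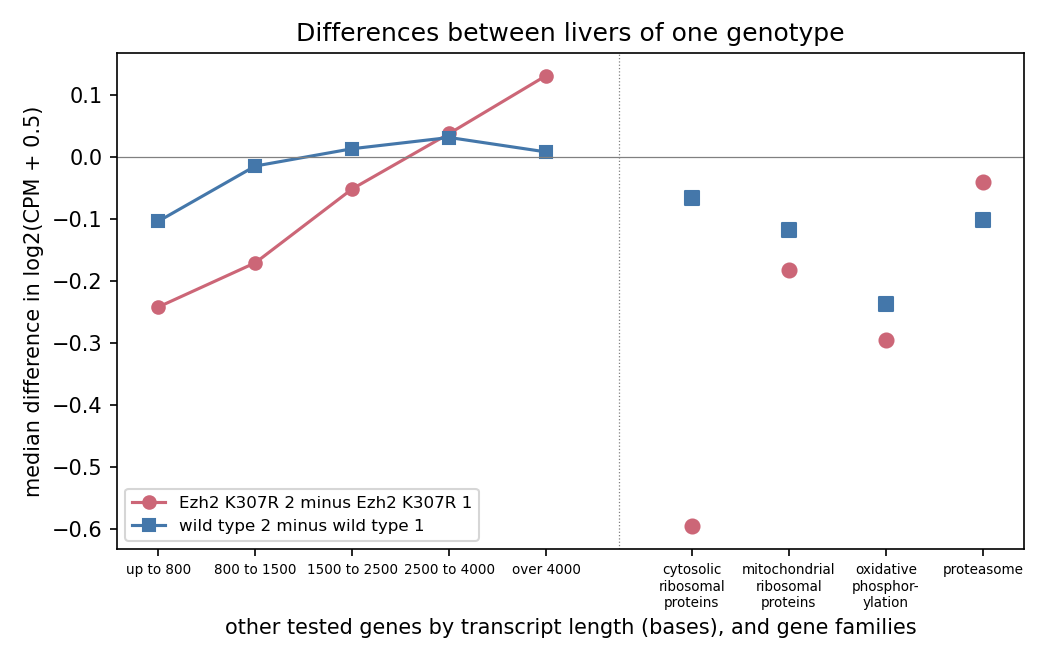
Median difference in log2(CPM + 0.5) between the livers of a genotype (red circles, mutant replicate 2 minus 1; blue squares, wild type replicate 2 minus 1), for tested genes outside the family in 5 classes of transcript length (left, joined by lines) and for 4 gene families (right). The red line climbs from -0.24 in the shortest class to 0.13 in the longest, and the cytosolic ribosomal proteins lie lowest, at -0.60.

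Markers of some cell types of the liver were also lower in the second mutant liver than in the first. On the measure used for the members, whose median difference between the mutant livers was -0.60, the median was -0.55 over 10 Kupffer cell markers (quartiles -0.65 and -0.39), -0.88 over 4 neutrophil, -0.54 over 5 B cell and -0.37 over 10 stellate cell markers. It was -0.04 over 10 hepatocyte markers, of which 5 were lowest in that liver, -0.09 over 8 T and NK cell markers, and between 0.10 and 0.32 for endothelial, red cell, bile duct and dividing cell markers. Summed over the hepatocyte markers, most of it Alb, the CPM were 164213, 162255, 145996 and 149394, with 0 of 10 called by edgeR (1 lower at an unadjusted p under 0.05). The 10 Kupffer cell markers summed to 286, 333, 502 and 348 CPM with 0 called (4 higher at an unadjusted p under 0.05). The 10 sinusoidal endothelial markers summed to 261, 266, 290 and 291 CPM with 0 called (2 higher and 1 lower at an unadjusted p under 0.05). Sums for stellate cells were 161, 279, 348 and 271 CPM. Of these 10 markers edgeR called 2 higher (Dcn and Colec11) and 1 lower (Col1a1), with 5 higher and 2 lower at an unadjusted p under 0.05. Bile duct markers summed to 70.8, 54.8, 32.5 and 60.4 CPM with 0 of 6 called (1 higher at an unadjusted p under 0.05). Red cell markers summed to 437, 553, 674 and 771 CPM with 1 of 5 called, Alas2, lower. The other 4, all haemoglobin genes, were higher at an unadjusted p under 0.05 by edgeR. Over all tested genes 1.39% were called higher and 1.47% lower, and 8.5% and 8.31% at an unadjusted p under 0.05. T and NK cell, B cell, neutrophil and dividing cell markers each summed to between 4.56 and 22.9 CPM with 0 called. Of these sums only that of the B cell markers, at 5.06 CPM, was lowest in mutant replicate 2. Their part in the members' values was not tested.

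Single parents are given by the genes nearest to the threshold. Rpl12, a protein at the base of the ribosomal stalk, had 297, 299, 218 and 144 CPM. Both mutant livers lay below the wild type, with a log2 fold change of -0.72 (SE 0.26), and edgeR's adjusted p was 0.211. Rpl27 of the large subunit had 126, 115, 95.1 and 79.6 CPM, again without overlap, with a log2 fold change of -0.46 with SE 0.20 (adjusted p 0.286 by edgeR). Rpl38, a large-subunit protein known for its part in the patterning of the axial skeleton of the mouse, had 83.8, 95.6, 81.5 and 46.2 CPM and a log2 fold change of -0.49 with SE 0.28 (adjusted p 0.433 by edgeR). Here the first mutant liver was close to the wild type and the second far below it. Rpl14 had 131, 168, 135 and 87.9 CPM and a log2 fold change of -0.43, with an edgeR adjusted p of 0.474.

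Above 0 stood Rpl22, an RNA-binding protein of the large subunit known for its role in T cell development, with 79.6, 71.8, 108 and 73.0 CPM. Its log2 fold change was 0.26 (SE 0.23, edgeR adjusted p 0.64), and only the first mutant liver was above the wild type. Rps27 had 150, 132, 180 and 113 CPM, Rps3, a protein at the entry of the mRNA channel, 235, 190, 265 and 176 CPM, and Rpl9 168, 151, 199 and 130 CPM. Rpl8 had 248, 230, 287 and 199 CPM. In these 4 genes the first mutant liver was the highest and the second the lowest, so their log2 fold changes lay between 0.02 and 0.06. Rpsa, which is also the laminin receptor, had 776, 773, 688 and 480 CPM, and Rplp0, the scaffold of the stalk, 564, 498, 599 and 458 CPM.

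The 4 members on the X chromosome did not stand apart from the rest. Rpl10 had 595, 551, 631 and 400 CPM, Rps4x 333, 318, 379 and 233 CPM, Rpl36a 140, 128, 135 and 78.5 CPM, and Rpl39 49.99, 35.4, 43.6 and 24.9 CPM. None was called by edgeR, at adjusted p between 0.609 and 0.91, with 0 of 4 also at an unadjusted p under 0.05 and 0 of 4 by DESeq2. Their median log2 fold change was -0.24, and without the second mutant liver 0 of the 4 were below 0.

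Among the copies, Rps27rt was the member that rose. It lies on chromosome 9 from 114982366 to 114982739 (GRCm38.p6) as 1 exon, where Rps27 on chromosome 3 from 90212667 to 90213648 has 5, and it is annotated as protein-coding. Its expected counts were 0, 0, 84.38 and 168.75, that is 0, 0, 4.46 and 8.64 CPM. Both wild-type livers were at 0 and both mutant livers above, with edgeR's adjusted p at 0.00527. Against a floor of 3 reads over the 2 wild-type livers its mean CPM in the mutants was at least 84.4-fold higher, a bound that covers counting error only.

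The reads of Rps27rt can hardly be told from those of its parent. Besides the same coding sequence, 341 of its 374 transcript bases align to Rps27 with 100% identity, and 91.1% of the 50-base words of its transcript also stand in Rps27. RSEM divides reads that match several transcripts by an estimate. In each liver the counts of the pair summed to a whole number, within 0.02 reads, although those of the 2 genes alone did not in the mutant livers. Rps27 had 2592, 2795, 3393.63 and 2213.25 reads, the pair 2592, 2795, 3478.01 and 2382. The copy's part of the pair was thus 0%, 0%, 2.43% and 7.08%. With the reads of all copies added to their parents, Rps27rt was no longer tested on its own, and 0 members were called higher. Rps27, then with Rps27rt and Rps27l, had a log2 fold change of -0.06 (0.943 as edgeR's adjusted p). That value also holds the reads of Rps27l, which alone had -0.54, so it does not describe Rps27 with Rps27rt only. The level of Rps27rt as a gene of its own is therefore uncertain.

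The paralogue Rps27l shares no 50-base word with Rps27 and had whole counts in every liver. It had 75.9, 51.8, 53.9 and 33.6 CPM and a log2 fold change of -0.54 with SE 0.28 (adjusted p 0.394 by edgeR). The second wild-type liver and the first mutant liver were alike, so the genotypes overlapped. Its part of the reads of Rps27 and Rps27l was 33.6%, 28.1%, 23.0% and 22.9%, lower in both mutants, by 7.90 percentage points in the mean.

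Rpl22l1, the paralogue that can take the place of Rpl22 in the ribosome, came nearest to a call among the members that were lower. It had 22.9, 17.1, 12.6 and 7.83 CPM, with both mutant livers below both wild-type livers. The log2 fold change was -0.97 (SE 0.28), and edgeR's adjusted p was 0.124. It passed the threshold with no filter on low counts (-0.97, edgeR adjusted p 0.041) and without wild type replicate 2 (-1.17, 0.038), and not under the other settings tried. Set against Rpl22, the part of Rpl22l1 in the reads of the pair was 22.4% and 19.2% in wild-type livers against 10.4% and 9.68% in mutant livers, 20.8% ± 2.22 against 10.1% ± 0.541 (SD, n = 2 each). The pair shares no 50-base word, and Rpl22 had whole counts in every liver. Rpl22l1 had fractional counts, at 396.38, 361.17, 237.36 and 152.94 reads, so its reads also rest in part on RSEM's division. Which other transcripts shared them was not tested. By FPKM, which rescales the same read estimates by length and so is no separate check, its part was 58.6%, 54.0%, 36.4% and 34.5%.

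**Figure D4:**
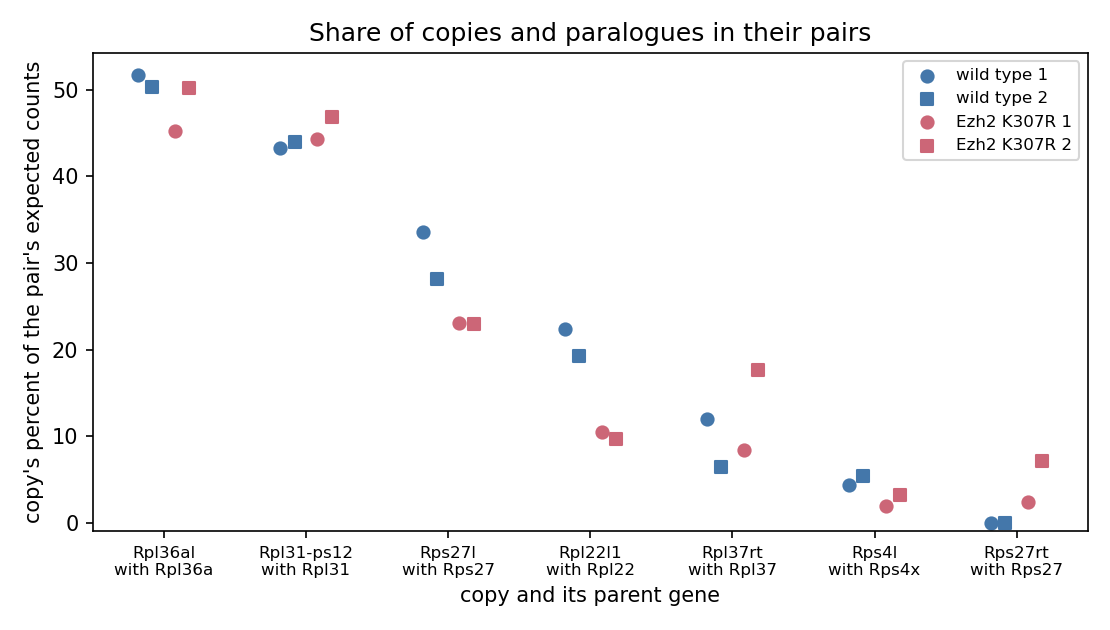
Percent of the reads of a pair of copy and parent that were assigned to the copy, for 7 pairs in the 4 livers (blue, wild type; red, Ezh2 K307R; circles, replicate 1; squares, replicate 2). Rpl22l1 takes 22.4% and 19.2% with the wild type, 10.4% and 9.68% with the mutation, and Rps27rt at 0% in both wild-type livers.

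The other copies and paralogues among the members did not pass the test. Rpl36al, the autosomal counterpart of the X-linked Rpl36a, shares no 50-base word with it and had 150, 130, 112 and 79.2 CPM, without overlap between the genotypes (log2 fold change -0.55, SE 0.23, edgeR adjusted p 0.281). The 2 genes were read at like levels, with Rpl36al at 51.7%, 50.3%, 45.3% and 50.2% of the pair. Rpl7l1, a nucleolar paralogue of Rpl7, had 67.3, 70.7, 65.0 and 65.5 CPM and a log2 fold change of -0.08 (95% interval -0.49 to 0.33), and unlike its parent, at 354, 323, 418 and 253 CPM, it was not low in the second mutant liver. Rpl31-ps12 had 96.6, 80.2, 98.8 and 63.8 CPM, close to Rpl31 at 126, 102, 124 and 72.4 CPM, and 62.0% of its 50-base words stand in Rpl31. RefSeq lists Rpl31-ps12, Rpl32l, Rpl34-ps1 and Rpl37rt as protein-coding. GENCODE lists Rpl37rt as a transcribed processed pseudogene and the others as processed pseudogenes.

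For copies that match their parents, the division of reads is again an estimate. Rpl37rt shares 38.7% of its words with Rpl37 and took 11.96%, 6.41%, 8.40% and 17.6% of the pair's reads, a spread that crosses the genotypes. Rpl34-ps1 shares 71.5% of its words and took between 0.520% and 1.996% of the reads of Rpl34 and itself. Rps23rg1 holds a part of Rps23 on the opposite strand: 0 of its words stand in Rps23 as read, and 17.1% do in the reverse complement. It had 8.79, 4.97, 12.3 and 3.53 CPM, and which strand was counted is not known here. Whole counts in all 4 livers were seen for 52 of the 77 parents and for 2 of the 9 tested copies, Rpl36al and Rps27l.

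A transcribed pseudogene, Rps4l, fell. It is a 1-exon copy on chromosome 6 from 148354656 to 148355596 with an identity of 78.6% to Rps4x and no shared 50-base word, and had 15.2, 18.1, 7.32 and 7.67 CPM. Both mutant livers lay below the wild type at like values, with a log2 fold change of -1.15 with SE 0.21 (adjusted p 0.0354 by edgeR). The call was lost in 6 settings, namely total-count scaling, limma on both FPKM scales, and without wild type replicate 2, mutant replicate 1 or mutant replicate 2, although the value without either mutant liver stayed between -1.19 and -1.12. Its parent Rps4x had a log2 fold change of -0.09. Rps19-ps3 was read at 0.636, 0.757, 0.106 and 0.102 CPM (edgeR adjusted p 0.0931), from 1.52 and 1.71 reads in the mutants, and 24.7% of its words stand in Rps19. Rpl14-ps1 had 27.8, 14.4, 32.2 and 22.4 CPM, Rps15a-ps4 11.4, 8.38, 12.8 and 9.11 CPM and Rps15a-ps6 12.3, 12.2, 12.8 and 7.26 CPM. None of these 3 was called, and 78.3%, 32.2% and 55.2% of their words stand in their parents.

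Within a gene, the part of each RefSeq transcript was followed for 13 members with several transcripts and at least 100 reads in every liver. Rpl38 moved most. Its 313-base transcript held 79.4%, 69.1%, 59.8% and 56.6% of the gene, 74.2% ± 7.31 without and 58.2% ± 2.28 with the mutation (SD, n = 2 each). The 370-base transcript held 14.5%, 21.5%, 30.0% and 32.4%, and parts of 1 gene must trade against each other. In CPM the 313-base transcript had 66.5, 66.0, 48.8 and 26.2, lower in both mutant livers, and the 370-base transcript 12.2, 20.5, 24.4 and 14.96, which overlapped between the genotypes. In Rpl22 the 2203-base transcript held 96.3%, 98.9%, 89.7% and 93.9%, and in Rpl35a the 503-base transcript held 84.6%, 86.8%, 88.6% and 91.5%. The 821-base transcript of Rps27a held 7.03%, 6.57%, 3.48% and 4.81%. In Rpl19 the 747-base transcript held 60.9%, 50.1%, 66.2% and 47.4%, which crossed the genotypes. Such transcripts overlap over most of their length, so these parts rest on RSEM's division of reads, and no test was made.

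Genes that make, load and control the ribosome were read from 7 lists of 147 genes, 146 of them tested. Of these 0 were called higher and 3 lower by edgeR, beside 1.39% and 1.47% of all tested genes. At an unadjusted p under 0.05 edgeR gave 4 higher and 13 lower, beside 8.5% and 8.31% of all tested genes. DESeq2 called 1 higher and 4 lower, beside 378 and 386 of the 12837 tested genes. Myc, the transcription factor that drives ribosome production, had 8.51, 8.99, 3.29 and 3.79 CPM (log2 fold change -1.30, edgeR adjusted p 0.0428). Its relative Mycn had 3.82, 1.94, 0.531 and 0.460 CPM (-2.52, edgeR adjusted p 0.0457). Eif2b3, a subunit of the exchange factor that recharges Eif2, had 13.7, 13.5, 6.84 and 6.496 CPM (-1.03, edgeR adjusted p 0.0471). All 3 lost the call without either mutant liver, at edgeR adjusted p between 0.115 and 0.193, and in each the 2 mutant livers lay close together.

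Of the MTOR pathway and its TOP effectors (21 genes), Larp1, which binds the TOP motif, had 105, 115, 160 and 197 CPM (log2 fold change 0.70, edgeR adjusted p 0.143). Eif4ebp3, a repressor of Eif4e, had 23.8, 55.1, 11.03 and 13.4 CPM (-1.69, edgeR adjusted p 0.0593), and Mtor itself 36.1, 34.4, 27.5 and 43.2 CPM. Both Larp1 and Eif4ebp3 had no overlap between the genotypes and did not pass the threshold. The 55 ribosome assembly factors had 0 called (edgeR; 4 lower and 0 higher at an unadjusted p under 0.05), a median log2 fold change of -0.28 and 47 below 0. Their summed CPM were 1352, 1690, 1264 and 1253, so the second wild-type liver was high and the first near the mutants. Both mutant livers lay below both wild-type livers for 14 of 55, near the 23.4% of all tested genes, and without wild type replicate 2 the median was -0.01 with 30 below 0. Without mutant replicate 2, in which 13 of 55 were lowest, it was -0.36. The 4 assembly factors with the smallest p were Nhp2 and Ncl, nucleolar proteins that act on ribosomal RNA, the kinase Riok2 and the GTPase Gnl3, with log2 fold changes between -0.62 and -0.57 (edgeR adjusted p between 0.189 and 0.294). The 15 genes of RNA polymerase I, which makes ribosomal RNA, had a median of -0.01 with 0 called (0 higher and 1 lower at an unadjusted p under 0.05), and its factor Rrn3 had a log2 fold change of -0.49 (0.284 as edgeR's adjusted p).

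The 18 other transcripts known to carry a TOP motif were, like the members, mostly lowest in mutant replicate 2. This held for 14 of 18, where 25.2% of all tested genes were lowest there. Their median difference between the mutant livers was -0.37. Of the 18, 0 were called by edgeR (1 higher and 0 lower at an unadjusted p under 0.05), with a median log2 fold change of -0.07. Eef2, Pabpc1, Gas5 and Eif4b were not lowest in that liver. Eef2 had 1613, 1372, 1724 and 1710 CPM and Pabpc1 287, 292, 253 and 302 CPM. Eef1a1, the elongation factor that brings transfer RNA, had 5566, 4688, 5824 and 4466 CPM. Tpt1, the translationally controlled tumour protein, had 1002, 850, 1172 and 695 CPM. Eif4b, a helper of the Eif4a helicase, did the opposite at 201, 203, 342 and 312 CPM (log2 fold change 0.69, edgeR adjusted p 0.150). Fau and Rack1, ribosomal proteins outside the symbol rule, were also lowest in mutant replicate 2, with 153, 170, 190 and 139 CPM for Fau and 367, 335, 337 and 247 CPM for Rack1. The 36 initiation factors had a median of -0.11 and the 12 tested elongation and release factors of -0.11, lowest in mutant replicate 2 for 13 and 6. Eif2s3x, the X-linked subunit of Eif2, had a log2 fold change of 0.66, the helicase Eif4a1 of -0.56, the kinase Eef2k, which inactivates Eef2, of -0.69 and the recycling factor Abce1 of -0.50, at edgeR adjusted p between 0.133 and 0.242.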

How the data were processed

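Total RNA of 4 frozen livers (2 wild type, 2 Ezh2 K307R) was sequenced, and HISAT, Bowtie2, RSEM and mm10 are named without versions per the submitters' processing notes. Neither read length nor strand is given in the sources used here. The deposited tables list, per RefSeq transcript, RSEM expected counts, which are not normalized, and FPKM, which the authors scaled to length and depth, per the file headers. Expected counts were summed per Entrez gene and rounded, and symbols and coordinates came from RefSeq (GRCm38.p6), for 17502 of 17543 genes. Of 243 list symbols 242 matched.

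Genes were tested by quasi-likelihood F tests in edgeR 4.0.16 (R 4.3.3; TMM, filterByExpr, genotype only, Benjamini-Hochberg over 12837 genes), tested on simulated data first. CPM are scaled to TMM library sizes (factors 0.896, 1.055, 1.014 and 1.043). Alternatives were other scalings, DESeq2 1.42.0, limma 3.58.1 (voom, and log2(FPKM + 1) or log2(FPKM + 0.1), where FPKM averaged 1 or more in either genotype), other filters, a replicate block, each liver left out in turn, and copies pooled or left out. Without a liver, the lone liver of its genotype is assumed to vary like the others. Exact tests used scipy 1.17.1, with pandas 2.3.3, in Python 3.11.15.

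The members and lists were chosen with earlier results of these data known. Named genes are those called, the 8 with the smallest p in each direction, copies with their parents, the 5 highest and 3 lowest in FPKM, X-linked members, the 5 members whose transcript parts moved most, and from each list up to 4 genes with the smallest p. Some genes that this rule selects are not reported here. Rpl21, Rps24, Rpsa, Rplp0, Mtor, Eef1a1, Tpt1, the 3 comparison families and the genes listed by their order over livers were added after values were seen. The same holds for Pabpc1, Gas5, Eif4ebp1 and Eif4ebp2. Sequences of copies and parents were compared in GENCODE M21 (GRCm38), and RefSeq's promoter table held 57 of the 77 parents.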

Additional observations from a re-analysis of the deposited data

How the results depend on the processing

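No parent gene was called under any scaling, filter or liver left out in the fits run with edgeR, and Rps27rt was called higher in all of them until copies were pooled with parents or left out (0 members higher in both). The count of members called lower was 1 with no filter and, over livers left out, between 0 and 1 (Rpl22l1). The median log2 fold change of the members lay between -0.54 and 0.056 over livers left out, and the sign turns without mutant replicate 2. Total-count scaling gave 188 genes higher and 124 lower over all genes, in place of 178 and 189. The counts over all genes, beside which the members' counts are read, also moved to 378 and 386 with DESeq2, 410 and 419 with no filter, 94 and 69 with limma on log2(FPKM + 1), and 91 and 70 on log2(FPKM + 0.1). Leaving out a wild-type liver gave 327 and 393 (the first) or 302 and 305 (the second), and leaving out a mutant liver 167 and 122 (the first) or 117 and 94 (the second). For the translation lists, the count lower was 0 with total-count scaling, limma-voom and limma on both FPKM scales, 1 with a mean of at least 1 CPM, and between 0 and 5 over livers left out; DESeq2 called 1 higher. By FPKM the difference in the copy's part of its pair was -20.8 percentage points for Rpl22l1 (-10.7 by counts), 6.65 for Rps15a-ps4 (4.60) and -1.19 for Rps19-ps3 (-0.79).

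The labels do not say that replicate numbers pair the livers, and the correlation of deviations of same-numbered livers was -0.003. With the replicate block 1 member was called higher and 0 lower, as without it, and 1 gene of the translation lists lower in place of 3.

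Sign changes over the fits were counted only for the genes selected by the naming rule, not for all members. Without mutant replicate 2 most of the 77 parents changed sign, as 71 were below 0 with all livers and 25 in that fit. Among the genes selected by the rule, the log2 fold changes of 26 members and copies, none of them called, changed sign in 43 combinations of a gene and a fit. Over livers left out in turn they ran from -0.052 to 0.51 for Rpl22, -0.96 to 0.84 for Rps23rg1, -0.27 to 0.64 for Rpl37rt, -0.32 to 0.35 for Rps27, -0.27 to 0.32 for Rps3, -0.30 to 0.32 for Rpl9, -0.27 to 0.27 for Rpl8, -0.030 to 0.92 for Rpl14-ps1, -0.47 to 0.16 for Rpl31-ps12, -0.12 to 0.38 for Rps15a-ps4, -0.75 to 0.070 for Rps15a-ps6 and -0.53 to 0.064 for Rpl3. For the rest they ran from -0.42 to 0.30 for Rpl7, -0.66 to 0.12 for Rpl31, -0.66 to 0.073 for Rpl32, -0.77 to 0.0099 for Rpl36a, -0.48 to 0.22 for Rps4x, -0.64 to 0.068 for Rps15a, -0.62 to 0.0045 for Rps19, -0.62 to 0.16 for Rps23, -0.30 to 0.069 for Rps2, -0.52 to 0.14 for Rpl10, -0.78 to 0.031 for Rpl39, -0.59 to 0.10 for Rpl35a and -0.77 to 0.095 for Rps27a. Rpl8 was at -0.00058 with limma-voom and at -0.00047 with the replicate block, and Rps27 at -0.058 with copies pooled. With limma on log2(FPKM + 1) and log2(FPKM + 0.1), Rpl7l1 was at 0.0015 and 0.0019, and Rpl7 at 0.024 in both. Rpl7 was at 0.031 with upper-quartile factors and 0.062 with total-count scaling. The cause was not tested. With 2 livers a genotype and a median SE of 0.26 on the log2 scale, shifts of the size of the members' median could not be called gene by gene.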
